A study of Mus musculus with 8 samples.

Results

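Ion channels, exchangers, pumps, aquaporins and carbonic anhydrases that set the volume and composition of uterine fluid were examined in whole uteri of Foxa2-deleted and control mice. The members were a list of 51 gene symbols, and where a gene had several probe sets, the brightest on average was taken. Of the 51, 50 were measured among 19938 genes tested, and Slc4a7 was not analysed here. Whole-uterus RNA of 8 female mice had been hybridised to 1 Affymetrix array per mouse, with 4 mice per genotype. Foxa2-deleted mice were PgrCre/+ Foxa2flox/flox: both Foxa2 alleles were floxed, and Cre recombinase stood at 1 Pgr allele, so that it was made in cells that use the progesterone receptor gene and 1 copy of that gene was altered. Controls were Pgr+/+ Foxa2+/+ and carried no Cre. Pseudopregnancy was started in all 8 by mating to vasectomised wild type males, and uteri were taken on its day 3.5, where the plug marks day 0.5. The ages of the mice were not stated. Each difference below is therefore one between these genotypes, in which Cre, the Pgr allele and Foxa2 cannot be told apart.

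The fluid of the uterine lumen is made and taken up by its epithelium. In secretion, anions enter the cell from the stromal side through cotransporters such as NKCC1 and NBCe1 and leave it at the apical membrane through channels and exchangers, with CFTR as the main chloride and bicarbonate channel, while potassium channels keep the driving force and water follows. In absorption, sodium enters through the apical sodium channel ENaC or sodium/proton exchangers and is pumped out by Na,K-ATPase. In rodents the lumen fills with fluid under estrogen, and fluid is removed under progesterone, so that the lumen closes before an embryo attaches. Carbonic anhydrases supply bicarbonate and protons to the exchangers, and FOXA2 is a transcription factor of the endometrial glands.

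The values are deposited log2 intensities, on which a difference of 1 is a 2-fold change, and all changes are given as Foxa2-deleted minus control. Median intensities of the arrays lay between 8.25 and 8.32. Correlations between arrays across probe sets chosen for the genes, which are not independent replicates, ran from 0.9805 to 0.9900 among Foxa2-deleted uteri and from 0.9961 to 0.9968 among controls. Foxa2 stood at 8.22, 8.20, 8.21 and 8.21 on the Foxa2-deleted arrays, against 8.61, 8.82, 8.74 and 8.73 on the control arrays, so that every array followed its label (log2 change -0.52, SE 0.05, adjusted p = 0.0013, limma). The position of its probe set relative to the floxed part was not stated.

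Transport genes changed in both directions, with the larger changes upward. Of the 50 measured members, 12 rose, 5 fell and 33 did not pass an adjusted p of 0.05 (limma, Benjamini-Hochberg over all genes). The share called was 34.0%, against 11.1% of all genes. The members were chosen with earlier results of these data known, so these shares are descriptive and were not tested. Of the members 24.0% rose and 10% fell, against 4.5% and 6.58% of all genes. A called change of at least 2-fold was found for 9 members, against 1.29% of all genes. The values of the groups did not overlap for 23 members (46.0%), including all 17 called, against 21.1% of all genes. The median change was 0.10 over the members and 0.01 over all genes. In whole tissue, fewer cells of a type and less RNA per cell cannot be told apart. Only 6 members were called without control replicate 2, without control replicate 3 or without control replicate 4, and 11 were called without control replicate 1. The 6 that stayed past the threshold with any 1 array left out were Clca1, Gabrp, Cftr, Slc34a2, Trpv6 and Slc4a4. The other 11 calls were each lost without control replicate 2, 3 or 4, and some also without other arrays, with adjusted p up to 0.119.

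**Figure D1:**
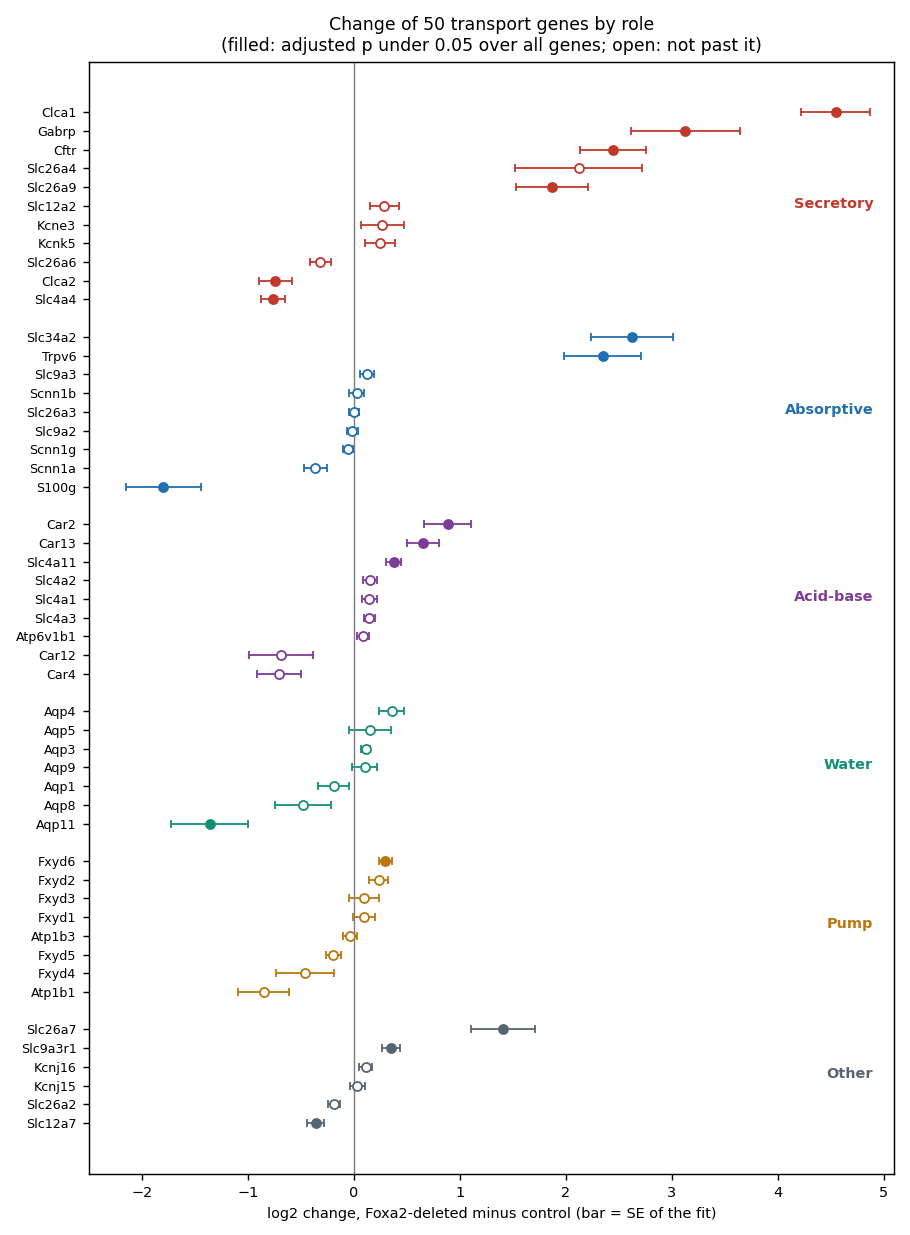
Log2 change (x axis, Foxa2-deleted minus control, bars are the SE of the fit) of the 50 measured transport genes (y axis), grouped by role and ordered by change, with filled points past an adjusted p of 0.05 over all genes. The filled points to the right reach 4.54 for Clca1, and those to the left reach -1.80 for S100g.

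Among the anion secretion members, the chloride channel genes Cftr, Gabrp and Slc26a9 and Clca1 rose, while the bicarbonate importer gene Slc4a4 and Clca2 fell. Of 11 secretory members measured, 4 rose (Clca1, Gabrp, Cftr and Slc26a9), 2 fell (Slc4a4 and Clca2) and 5 did not pass. Their median change was 0.29, and they spanned -0.77 to 4.54. Clca1, a secreted regulator of calcium-activated chloride channels made by mucous epithelia, stood at 12.45, 10.96, 12.57 and 11.44 on Foxa2-deleted arrays, against 7.29, 7.35, 7.28 and 7.32 on control arrays. All 4 Foxa2-deleted uteri were far above the controls, which lay within 0.1 of each other, and the level was 23.3-fold higher (a log2 change of 4.54, SE 0.32, adjusted p = 3.53e-04). In controls the values of Clca1, and likewise of Gabrp, Cftr, Slc26a9, Slc34a2 and Trpv6, lay below the array median with no detection call, so that their folds are those of the normalised scale and may be understated. Clca2, a family member placed next to it on chromosome 3, went the other way. It stood at 7.24, 8.05, 7.51 and 7.89 on Foxa2-deleted arrays, against 8.49, 8.42, 8.39 and 8.36 on control arrays, and was 1.67-fold lower (a log2 change of -0.74, SE 0.16, adjusted p = 0.0233). The Foxa2-deleted uteri were all below the controls and spread over a wider range.

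Cftr, the chloride and bicarbonate channel opened by cyclic AMP, had values of 9.05, 8.17, 9.93 and 9.39 in Foxa2-deleted uteri, against 6.68, 6.83, 6.67 and 6.58 in controls. It was 5.45-fold higher over dim control values (a log2 change of 2.44, SE 0.31, adjusted p = 0.00404), and its lowest Foxa2-deleted uterus, replicate 2, was still well above every control. Gabrp encodes the pi subunit of the GABA-A receptor, a chloride channel opened by GABA. It had values of 11.06, 8.78, 10.85 and 11.57 in Foxa2-deleted uteri, against 7.42, 7.49, 7.16 and 7.68 in controls, an 8.74-fold higher level (log2 change 3.13, SE 0.51, adjusted p = 0.0112). Replicate 2 was again the lowest of the Foxa2-deleted uteri and the groups did not overlap. Without replicate 2 the log2 change of Gabrp was 3.72. Slc26a9, an epithelial chloride channel of the SLC26 family, had values of 8.98, 8.41, 10.34 and 9.56 in Foxa2-deleted uteri, against 7.46, 7.44, 7.46 and 7.45 in controls. It was 3.66-fold higher (a log2 change of 1.87, SE 0.34, adjusted p = 0.0153), with nearly identical control values.

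Slc26a4 encodes pendrin, an apical chloride/bicarbonate exchanger, and did not pass the threshold (log2 change 2.12, SE 0.60, adjusted p = 0.0537). Its values were 7.40, 8.63, 10.88 and 8.71 in Foxa2-deleted uteri, against 6.89, 6.71, 6.77 and 6.77 in controls. Every Foxa2-deleted uterus was above every control, but the 4 differed widely among themselves, and the gene passed when Foxa2-deleted replicate 1 or replicate 3 was left out, with a log2 change of 1.46 without replicate 3. Slc26a6, another apical exchanger of chloride for bicarbonate, did not pass either (log2 change -0.32, SE 0.10, adjusted p = 0.0713), and its groups overlapped in 1 Foxa2-deleted uterus, replicate 2, at 8.53.

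On the stromal side of the cell, Slc4a4 encodes NBCe1, which loads bicarbonate together with sodium. It stood at 9.52, 9.91, 9.73 and 9.35 in Foxa2-deleted uteri, against 10.48, 10.33, 10.31 and 10.45 in controls. The groups were separate, with every Foxa2-deleted uterus lower, and the level was 1.70-fold lower (a log2 change of -0.77, SE 0.11, adjusted p = 0.00757). Slc12a2, which encodes the chloride-loading cotransporter NKCC1, had values of 10.53, 10.87, 10.78 and 11.29 in Foxa2-deleted uteri, against 10.53, 10.56, 10.67 and 10.57 in controls (log2 change 0.29, SE 0.14, adjusted p = 0.190), and the groups overlapped. The potassium channel genes Kcnk5 and Kcne3 had log2 changes of 0.25 (SE 0.14) and 0.27 (SE 0.20), with overlapping groups and adjusted p of 0.250 and 0.381.

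**Figure D2:**
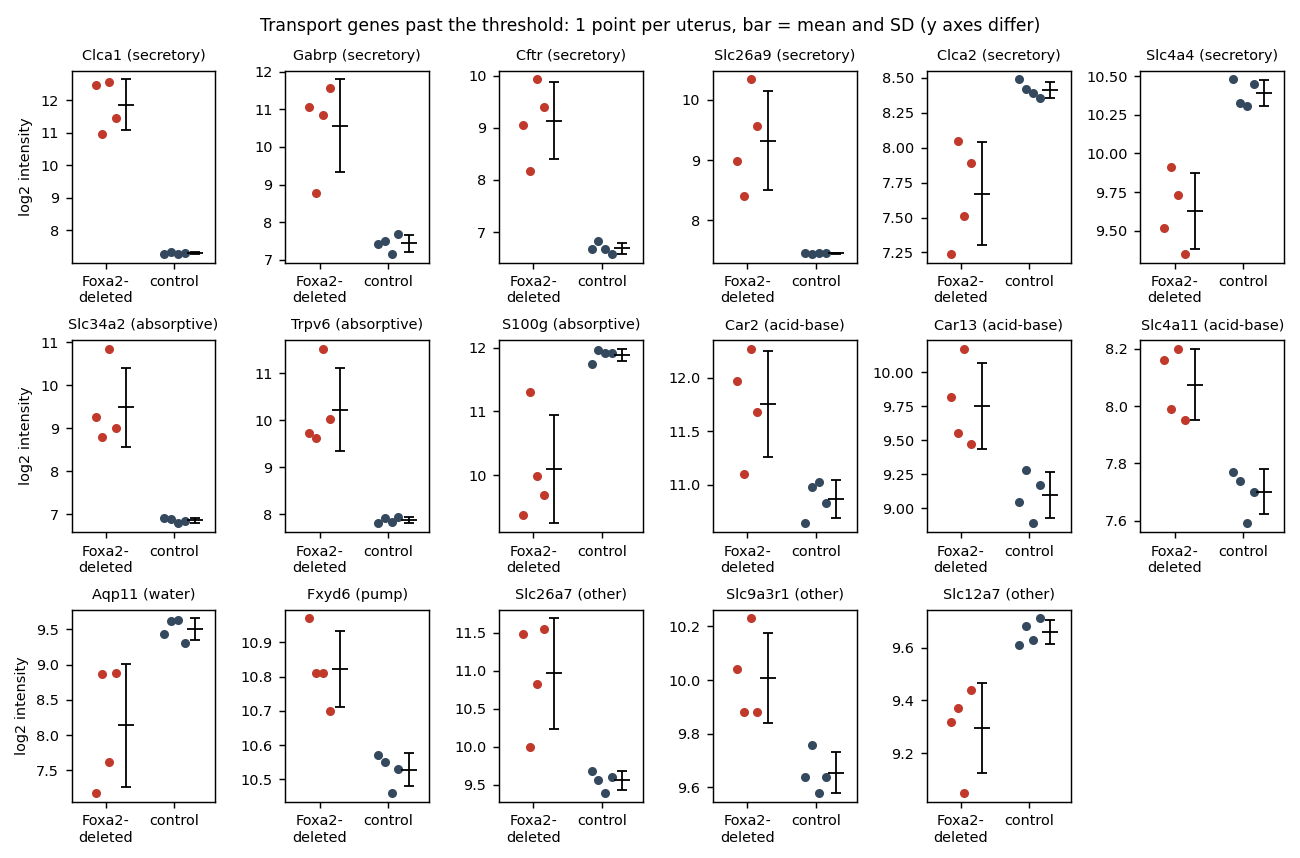
Log2 intensity (y axis, a scale of its own in each panel) of the 17 transport genes past the threshold, with 1 point per uterus, Foxa2-deleted at the left and control at the right, and the mean with its SD as a bar. In each panel the points of the groups do not overlap, and the Foxa2-deleted points are more spread than the control points.

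Of 9 absorptive members measured, 2 rose (Slc34a2 and Trpv6), 1 fell (S100g) and 6 did not pass, with a median change of 0.00. Slc34a2 encodes the apical cotransporter NaPi-IIb, which takes up phosphate with sodium. Its values were 9.27, 8.81, 10.85 and 9.02 in Foxa2-deleted uteri, against 6.92, 6.90, 6.79 and 6.85 in controls, and it was 6.16-fold higher over these dim control values (a log2 change of 2.62, SE 0.38, adjusted p = 0.00742). All Foxa2-deleted uteri were above the controls, with replicate 3 the highest.

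Both calcium genes of the list changed, in opposite directions. TRPV6 is the apical channel through which calcium enters epithelial cells, and S100g encodes calbindin-D9k, which buffers calcium in the cytosol and is known in the uterus as a target of steroid hormones. Trpv6 stood at 9.74, 9.62, 11.52 and 10.02 in Foxa2-deleted uteri, against 7.81, 7.92, 7.84 and 7.94 in controls, and was 5.09-fold higher (a log2 change of 2.35, SE 0.36, adjusted p = 0.00925). S100g stood at 9.38, 11.31, 9.98 and 9.69 in Foxa2-deleted uteri, against 11.75, 11.96, 11.92 and 11.92 in controls, and was 3.48-fold lower (a log2 change of -1.80, SE 0.35, adjusted p = 0.0189). For Trpv6 replicate 3 lay apart from the other Foxa2-deleted uteri at the top, and for S100g replicate 2 stayed closest to the controls.

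The 3 subunits of ENaC, the channel that limits sodium uptake, did not pass. Scnn1a, the alpha subunit, had values of 8.0, 8.27, 7.76 and 7.83 in Foxa2-deleted uteri, against 8.36, 8.46, 8.30 and 8.20 in controls (log2 change -0.36, SE 0.11, adjusted p = 0.0647). The groups overlapped through replicate 2 of the Foxa2-deleted uteri, and without that array Scnn1a passed the threshold. The beta and gamma subunits Scnn1b and Scnn1g had log2 changes of 0.02 (SE 0.07) and -0.06 (SE 0.05). The sodium/proton exchanger genes Slc9a2 and Slc9a3, and Slc26a3, the exchanger that takes up chloride in the gut, had log2 changes between -0.01 and 0.12, with adjusted p of 0.226 or more. A small change of such a dim probe set may be understated by the normalisation, which was not tested, and no detection calls came with the values.

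Set side by side, 54.5% of the secretory and 33.3% of the absorptive members were called, against 11.1% of all genes. The roles, too, were set with earlier results of these data known. Relative to the control mean of each gene, the mean over the 11 secretory members was 1.03, 0.81, 1.61 and 1.31 on Foxa2-deleted replicates 1 to 4, with controls between -0.03 and 0.02. The mean over the 9 absorptive members was 0.17, 0.35, 0.59 and 0.17, with controls again between -0.03 and 0.02. The secretory mean was the higher on each of the 4 Foxa2-deleted arrays, and the difference between the classes was not tested. These means are drawn by a few large changes, the largest being that of Clca1 at 4.54. The median change was 0.29 over the secretory and 0.00 over the absorptive members, and 2 secretory members fell. With a wider reading of the roles, which adds Slc4a2, Slc26a3, Slc26a7, Kcnj15 and Kcnj16 to the secretory genes and Atp1b1 and Slc12a7 to the absorptive genes in place of Slc26a3, 5 of 16 secretory members rose and 2 fell, and 2 of 10 absorptive members rose and 2 fell.

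The upstream sequences of 2 anion channel genes that rose and of the calcium pair are shown, and these 4 were among the members with the largest changes. They were picked by hand, and others with large changes, such as Clca1 and Slc34a2, are not shown. Each is the 250 bases before the gene start in RefSeq on GRCm38.p6, read 5′ to 3′ on the strand of the gene. Capitals mark the letters TGTTTAC, a forkhead core, or TGTTCT, a core of the element bound by the progesterone receptor, on either strand.
Gabrp, chr11:33578958-33579207, minus strand: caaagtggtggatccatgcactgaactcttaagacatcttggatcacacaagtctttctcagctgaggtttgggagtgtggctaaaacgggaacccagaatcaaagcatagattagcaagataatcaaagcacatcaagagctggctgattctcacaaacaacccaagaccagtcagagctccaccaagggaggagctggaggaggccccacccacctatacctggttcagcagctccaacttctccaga
Cftr, chr6:18170437-18170686, plus strand: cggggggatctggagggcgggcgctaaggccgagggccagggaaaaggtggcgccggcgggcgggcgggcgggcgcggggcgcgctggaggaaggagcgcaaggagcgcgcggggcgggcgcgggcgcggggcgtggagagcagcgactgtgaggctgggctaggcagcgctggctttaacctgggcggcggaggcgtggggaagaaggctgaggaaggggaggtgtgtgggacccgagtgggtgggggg
Trpv6, chr6:41636406-41636655, minus strand: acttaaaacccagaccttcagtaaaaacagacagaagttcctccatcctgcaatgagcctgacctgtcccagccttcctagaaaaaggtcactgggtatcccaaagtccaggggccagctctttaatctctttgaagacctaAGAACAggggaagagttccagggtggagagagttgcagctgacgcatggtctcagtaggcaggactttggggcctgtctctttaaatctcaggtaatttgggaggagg
S100g, chrX:162964600-162964849, minus strand: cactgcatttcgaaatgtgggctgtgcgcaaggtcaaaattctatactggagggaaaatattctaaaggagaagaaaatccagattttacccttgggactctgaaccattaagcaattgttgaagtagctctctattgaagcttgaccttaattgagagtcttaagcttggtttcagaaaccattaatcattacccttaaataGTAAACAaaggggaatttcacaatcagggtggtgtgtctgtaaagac

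The S100g window held the forkhead core, as GTAAACA, at 47 to 41 bases before the start. The Trpv6 window held AGAACA, the other strand of TGTTCT, at 108 to 103 bases before the start, and the Gabrp and Cftr windows held neither motif. The Cftr window was 76.4% G or C, and the other 3 were between 38.4% and 49.6%. RefSeq windows were matched for 38 of the 50 members. TGTTTAC stood in those of 2 members (5.26%), S100g and Atp6v1b1, against 3.17% of all 32851 windows, and TGTTCT in those of 4 members (10.5%), against 16.1%. The palindromic estrogen response element stood in 0 of the 38, against 0.0639% of all windows. Members were counted by gene and the background by window, so these shares are not on the same footing. Of the 12 called members with a window, 1 held TGTTTAC and 2 held TGTTCT. These are matches of letters in a short window.

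Of 9 members of acid-base handling, 3 rose (Car2, Car13 and Slc4a11), none fell and 6 did not pass, so that 33.3% were called, against 11.1% of all genes. Car2, a cytosolic carbonic anhydrase, had values of 11.97, 11.10, 12.27 and 11.68 in Foxa2-deleted uteri, against 10.64, 10.98, 11.03 and 10.83 in controls (log2 change 0.89, SE 0.22, adjusted p = 0.0381). Car13, also cytosolic and encoded near Car2 on chromosome 3, had values of 9.82, 9.55, 10.17 and 9.47 in Foxa2-deleted uteri, against 9.05, 9.28, 8.89 and 9.17 in controls (log2 change 0.66, SE 0.15, adjusted p = 0.0302). In both genes replicate 3 was the highest Foxa2-deleted uterus, and the lowest Foxa2-deleted uterus was less than 0.2 above the highest control. Slc4a11, a bicarbonate transporter family member known from the corneal endothelium, had values of 8.16, 7.99, 8.20 and 7.95 in Foxa2-deleted uteri, against 7.77, 7.74, 7.59 and 7.70 in controls (log2 change 0.38, SE 0.07, adjusted p = 0.0165).

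Car4 and Car12, the membrane-bound carbonic anhydrases among the members, had negative changes that did not pass. Car4, which is anchored at the cell surface, had values of 7.76, 8.74, 7.84 and 8.41 in Foxa2-deleted uteri, against 9.09, 8.81, 8.74 and 8.95 in controls (log2 change -0.71, SE 0.21, adjusted p = 0.0587). The groups touched at 8.74, and the gene passed without Foxa2-deleted replicate 2. Car12, which spans the membrane, overlapped between the groups (log2 change -0.68, SE 0.30, adjusted p = 0.158). The anion exchanger genes Slc4a1, Slc4a2 and Slc4a3 and the proton pump subunit gene Atp6v1b1 had log2 changes between 0.08 and 0.16, and of these the groups were separate in Slc4a3 alone, at 9.63 to 9.79 in Foxa2-deleted uteri, against 9.53 to 9.60 in controls (adjusted p = 0.0878). A second, dimmer Slc4a3 probe set had a log2 difference of -0.01.

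Of 7 aquaporin genes, 1 fell, none rose and 6 did not pass, a called share of 14.3% that is near the 11.1% of all genes. Aqp11, an aquaporin of intracellular membranes, stood at 7.18, 8.87, 7.62 and 8.88 in Foxa2-deleted uteri, against 9.44, 9.62, 9.63 and 9.31 in controls (log2 change -1.36, SE 0.37, adjusted p = 0.0466). The Foxa2-deleted uteri formed a lower pair, replicates 1 and 3, and a higher pair, replicates 2 and 4, all below the controls. This call did not hold on omitting any control or Foxa2-deleted replicate 1 or 3 (the highest adjusted p was 0.119), nor under a repeated quantile normalisation, cyclic loess or a spread model with an intensity trend. Aqp5, the apical aquaporin of secretory glands, had values of 9.63, 8.78, 9.37 and 8.82 in Foxa2-deleted uteri, against 8.80, 8.96, 8.94 and 9.30 in controls, and the groups overlapped (log2 change 0.15, SE 0.20, adjusted p = 0.623). Aqp8 had a log2 change of -0.48 (SE 0.27, adjusted p = 0.244), with 1 control at 8.69 and the other controls between 7.47 and 7.66. Aqp4 lay at 6.96 to 7.55 in Foxa2-deleted uteri, against 6.77 to 6.81 in controls, and Aqp3 at 7.78 to 7.88 in Foxa2-deleted uteri, against 7.70 to 7.76 in controls. Neither passed (adjusted p of 0.0805 and 0.117) although their groups were separate. Aqp1, the water channel of endothelium, and Aqp9 had log2 changes of -0.19 (SE 0.14) and 0.10 (SE 0.12).

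Of 8 genes for Na,K-ATPase subunits and their FXYD regulators, 1 rose and 7 did not pass, a called share of 12.5% that is also near the 11.1% of all genes. Fxyd6, a small membrane protein that modulates the pump, had values of 10.97, 10.81, 10.81 and 10.70 in Foxa2-deleted uteri, against 10.57, 10.55, 10.46 and 10.53 in controls (log2 change 0.30, SE 0.06, adjusted p = 0.0230). Atp1b1, the beta subunit that brings the pump to the membrane, had values of 10.23, 11.44, 10.62 and 10.38 in Foxa2-deleted uteri, against 11.43, 11.66, 11.72 and 11.26 in controls (log2 change -0.85, SE 0.24, adjusted p = 0.0550). In Atp1b1 3 of the Foxa2-deleted uteri were below all controls and replicate 2 lay among them, and without replicate 2 the gene passed. Fxyd4, a pump regulator of the collecting duct and colon, had a log2 change of -0.46 (SE 0.27, adjusted p = 0.273). Fxyd2 lay at 7.64 to 8.02 in Foxa2-deleted uteri, against 7.42 to 7.59 in controls (adjusted p = 0.111). Atp1b3, Fxyd1, Fxyd3 and Fxyd5 had log2 changes between -0.20 and 0.10 with overlapping groups, and a second probe set of Atp1b3 differed by -0.04, close to the -0.04 of the one used.

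The remaining 6 members include exchangers, potassium channels and a scaffold. Slc26a7, an anion transporter of the SLC26 family, had values of 11.48, 9.99, 10.83 and 11.55 in Foxa2-deleted uteri, against 9.68, 9.56, 9.39 and 9.60 in controls, and was 2.65-fold higher (a log2 change of 1.41, SE 0.30, adjusted p = 0.0249). Slc9a3r1 encodes NHERF1, the scaffold that tethers CFTR and sodium/proton exchangers at the apical membrane. It had values of 10.04, 9.88, 10.23 and 9.88 in Foxa2-deleted uteri, against 9.64, 9.76, 9.58 and 9.64 in controls (log2 change 0.35, SE 0.08, adjusted p = 0.0329). Slc12a7, the potassium-chloride cotransporter KCC4, stood at 9.32, 9.37, 9.05 and 9.44 in Foxa2-deleted uteri, against 9.61, 9.68, 9.63 and 9.71 in controls (log2 change -0.36, SE 0.08, adjusted p = 0.0274). In these 3 genes the groups were separate. Slc26a2, a sulfate transporter, lay at 9.06 to 9.19 in Foxa2-deleted uteri, against 9.21 to 9.41 in controls (log2 change -0.19, SE 0.06, adjusted p = 0.0622). The inward rectifier genes Kcnj15 and Kcnj16 had log2 changes of 0.03 (SE 0.07) and 0.11 (SE 0.06).

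Foxa2-deleted uteri differed more among themselves than controls did in these genes, with the larger SD in all 17 called members and in 40 of the 50. Across all genes, too, arrays correlated less among Foxa2-deleted uteri (0.9805 to 0.9900) than among controls (0.9961 to 0.9968). The shares of all genes for this count and for the counts by replicate below were not computed. Of the 12 members that rose, replicate 2 was the Foxa2-deleted uterus nearest the controls in 9 and replicate 3 the farthest in 9. Of the 5 that fell, replicate 2 was the nearest in 3 and replicate 1 the farthest in 3. Relative to the control mean, the 12 that rose averaged 1.83, 1.09, 2.29 and 1.77 on Foxa2-deleted replicates 1 to 4, and the 5 that fell averaged -1.44, -0.47, -1.19 and -0.92.

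**Figure D3:**
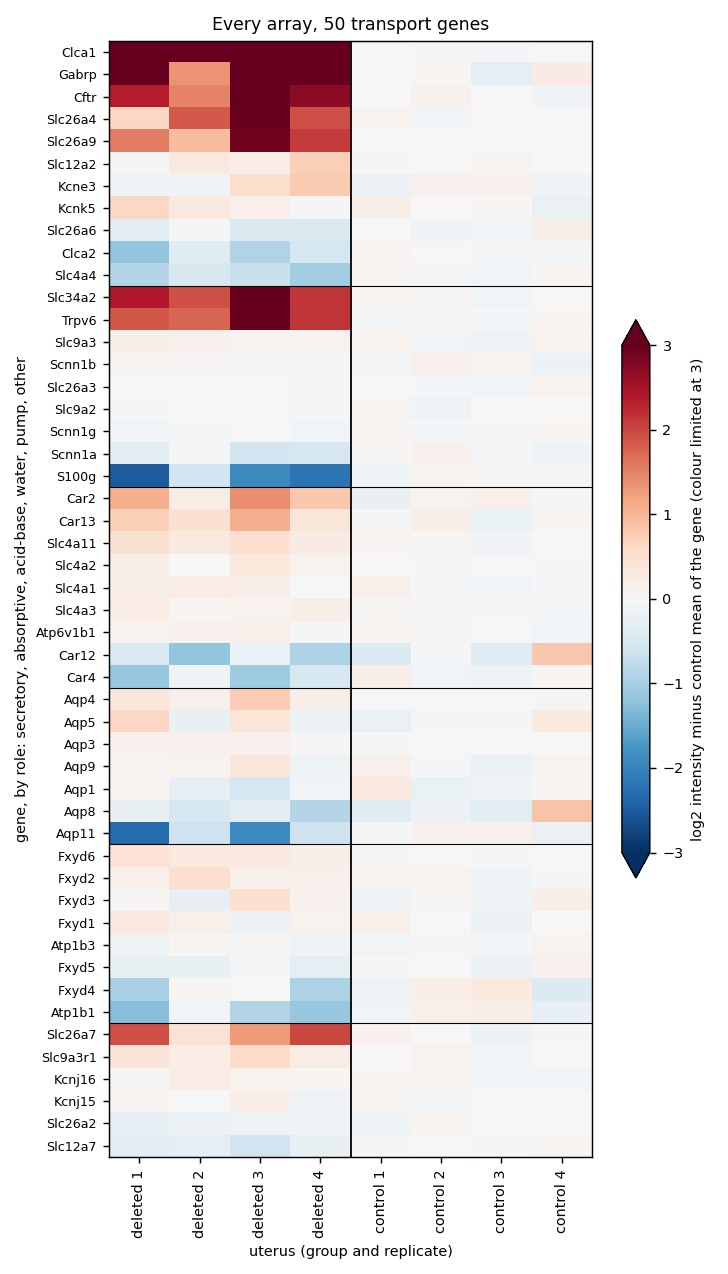
Difference of each log2 intensity from the control mean of its gene (colour, limited at 3) for 50 transport genes (rows, by role) on the 8 arrays (columns), Foxa2-deleted at the left. Of the 12 genes that rose, Foxa2-deleted replicate 3 is farthest from the controls in 9 and replicate 2 nearest to them in 9.

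Markers of cell types moved beside these genes, and their part in the results was not tested. Of 19 pan-epithelial markers measured, 8 rose and none fell, a called share of 42.1%, against 11.1% of all genes. Their summed log2 level lay between 189.79 and 208.62 in Foxa2-deleted uteri, against 182.46 to 185.39 in controls. Relative to controls they averaged 0.55, 0.31, 1.30 and 0.68 on Foxa2-deleted replicates 1 to 4. They were highest on replicate 3 and lowest on replicate 2, as were the 12 transport genes that rose. In those 12 genes replicates 1 and 4 stood in the other order. Of the lists below, endothelial markers averaged -0.67, -0.30, -0.94 and -0.51, also farthest from controls on replicate 3 and nearest on replicate 2. Endometrial gland markers averaged -0.89, -1.09, -0.79 and -1.05, nearest on replicate 3. Among the defining epithelial genes, Epcam had a log2 change of 0.87 (SE 0.22, adjusted p = 0.0390) and Cdh1 one of 0.59 (adjusted p = 0.0523). The Epcam call was lost on omitting any control or Foxa2-deleted replicate 1 or 4 (highest adjusted p 0.0995). Of the 19 markers 17 had a positive change, with Krt18 at 0.11 among the smaller ones. Cldn3 and Cldn4 had changes of -0.47 and -0.11 and did not pass. Of 11 endometrial gland markers, 5 fell and 1 rose, or 54.5% called, Foxa2, the deleted gene itself, being one that fell. Lif, Sox9, Wfdc3, Gpx3 and Prss29 did not pass. Summed levels of the gland markers were 86.33 to 89.73 in Foxa2-deleted uteri, against 96.12 to 102.01 in controls. Of 10 endothelial markers 8 fell and none rose, or 80.0% called (98.16 to 104.54 in Foxa2-deleted uteri, against 107.16 to 108.15 in controls). Of 10 squamous markers of cervix and vagina 3 rose and none fell (72.90 to 77.20 in Foxa2-deleted uteri, against 71.14 to 71.95 in controls). For smooth muscle 1 of 10 rose, for kidney and bladder 1 of 9 fell (Slc12a3, which is also among the other transport genes), for ovary and oviduct 1 of 8 fell, and of 4 erythroid markers none passed, shares of 12.5% or less, near or below that of all genes. The summed levels of these last lists overlapped between the groups. On this log2 scale no marker was at 0.

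Other genes of the same processes were taken from a list of 74 channels, transporters, pumps and carbonic anhydrases and 28 regulators, of which 91 were measured. Of these, 12 rose, 3 fell and 76 did not pass, so that 16.5% were called, against 11.1% of all genes. Of the 65 transporters among them 9 rose and 2 fell, and of the 26 regulators 3 rose and 1 fell. Only 4 of the 91 were called without control replicate 2, 3 or 4, and 6 without control replicate 1, while 10 were called without Foxa2-deleted replicate 1. Lrrc26, a regulatory subunit of the large-conductance potassium channel in secretory epithelia, had values of 9.58, 9.01, 10.46 and 9.49 in Foxa2-deleted uteri, against 7.90, 8.03, 7.79 and 7.82 in controls (log2 change 1.75, SE 0.26, adjusted p = 0.00731). The groups were wide apart, with replicate 3 the highest. Kcnma1, the gene of that channel itself, did not pass (log2 change 0.42, SE 0.33, adjusted p = 0.402), and its groups overlapped. Nor did the potassium channel genes Kcnj2, Kcnj8, Kcnj10, Kcnk6 and Kcne1. Of further potassium channels, Kcnq1, which pairs with the KCNE3 subunit in colon and airway, rose by 0.48 (SE 0.10), Kcnk1 by 0.50 (SE 0.11) and Kcnn4, the calcium-activated channel of secretory cells, by 1.04 (SE 0.26), with adjusted p of 0.0230, 0.0267 and 0.0376.

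Among carbonic anhydrases outside the members, Car9, which faces the outside of the cell, had values of 8.53, 8.44, 10.12 and 8.65 in Foxa2-deleted uteri, against 7.38, 7.33, 7.35 and 7.25 in controls (log2 change 1.61, SE 0.33, adjusted p = 0.0217), and the mitochondrial Car5b rose by 0.81 (SE 0.14, adjusted p = 0.0122). Ano9, an anoctamin gene, rose by 0.93 (SE 0.20, adjusted p = 0.0230). Ano1, another anoctamin gene and a chloride channel, did not pass (log2 change -0.59, SE 0.22, adjusted p = 0.110). Its Foxa2-deleted uteri, at 9.40 to 10.60, were all below the controls, at 10.62 to 10.74. Trpv5, the closest relative of Trpv6, rose by 0.32 (SE 0.08, adjusted p = 0.0349), and whether the probe sets of these similar genes pick up each other's transcripts was not tested. St14 and Tmprss4, membrane serine proteases able to cleave and activate ENaC, rose by 1.13 (SE 0.22, adjusted p = 0.0178) and 0.99 (SE 0.24, adjusted p = 0.0359).

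Of the 3 genes that fell, Slc12a3 and Stk39 act in chloride cotransport. Slc12a3, the thiazide-sensitive cotransporter of the kidney tubule, stood at 7.86, 7.88, 7.75 and 7.74 in Foxa2-deleted uteri, against 8.45, 8.59, 8.55 and 9.32 in controls (log2 change -0.92, SE 0.17, adjusted p = 0.0161). Stk39 encodes SPAK, a kinase that activates NKCC1 and its relatives, and stood at 9.68, 9.77, 9.65 and 9.59 in Foxa2-deleted uteri, against 9.90, 10.06, 10.03 and 10.10 in controls (log2 change -0.35, SE 0.06, adjusted p = 0.0123). In both genes all Foxa2-deleted uteri were below all controls. Kcnk2, Ezr and the chloride channel gene Clcn2 also passed, with log2 changes of 0.69 (SE 0.18), 0.39 (SE 0.10) and -0.25 (SE 0.07). They, Ano1 and the potassium channel and protease genes that did not pass are named outside the rule that chose the others.

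**Figure D4:**
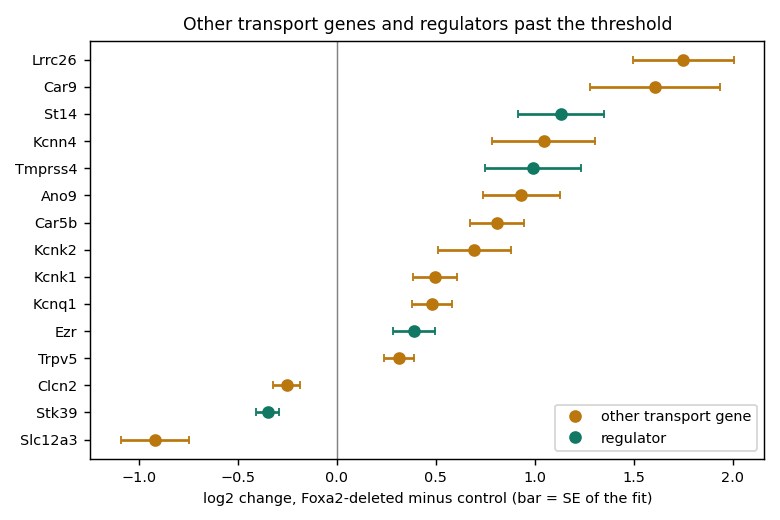
Log2 change (x axis, Foxa2-deleted minus control, bars are the SE of the fit) of the 15 transport genes and regulators outside the members that passed the threshold (y axis), coloured by list. The 12 to the right of 0 rose and the 3 to the left, Slc12a3, Stk39 and Clcn2, fell.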

How the data were processed

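The deposited values are log2 intensities, 1 per probe set and uterus, made by the authors with RMA (background correction, normalisation between arrays and summary of probes), per the submitters' processing notes, which also name limma. Versions, build and scan batches were not stated. RMA pulls dim probe sets towards a floor, and precision is limited by the number of arrays. From 35556 probe sets, 21789 had 1 gene symbol in GEO's platform annotation, 1621 several and 12146 none. The highest-mean probe set per gene gave 19938 genes, with no filter on low values. The genotypes were compared with lmFit and eBayes in limma 3.58.1 (R 4.3.3) with no covariate, and p-values were adjusted by Benjamini-Hochberg over all 19938 genes. The labels call the replicates biological. Errors are SE of the moderated fit. The fit was tested on simulated data in which both groups had the same SD for each gene. The wider spread of the Foxa2-deleted uteri was therefore not covered by that test.

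The members, their roles and all gene lists were chosen from textbook knowledge with earlier results of these data known. Members past the threshold are given with every array, and of the others those with the largest and smallest change in each role or with separate groups. Of the other transport genes, the 12 with the smallest adjusted p were named. Alternatives covered other scalings, filters on dim genes, the choice of probe sets, spread models, array weights, a replicate block and each array left out.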

Additional observations from a re-analysis of the deposited data

Results flagged for a closer look

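Each member was examined for a single array lying apart from the other 3 of its group, over 100 groups of 4, of which chance alone would mark about 5%. 4 were marked. Aqp8 stood at 8.69 on control replicate 4, with the other controls between 7.47 and 7.66. Fxyd2 stood at 8.02 on Foxa2-deleted replicate 2, with the other Foxa2-deleted arrays between 7.64 and 7.68. Aqp3 stood at 7.78 on Foxa2-deleted replicate 4, with the others at 7.87 to 7.88, and Aqp4 at 6.77 on control replicate 4, with the other 3 at 6.81. The last 2 gaps are smaller than 0.1 and close to the rounding of the values.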

How the results depend on the processing

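The count of 17 called members was 17 under 3 other scalings, with the dimmest 25% of genes left out, with all single-symbol probe sets tested and with the mean of a gene's probe sets. Quantile normalisation applied again gained Fxyd5 and cyclic loess Slc4a3, and both lost Aqp11. It was 16 with an intensity trend and 22 with array weights, and no called member changed sign under any alternative run. With the lower 50% of genes left out, 26 members were tested and 12 called, and the secretory count was 3, since fewer genes were tested. Leaving out 1 array at a time gave 6 to 21 called members, 4 to 7 secretory, 2 to 4 absorptive, 4 to 21 other transport genes and regulators, and 556 to 3059 of all genes. Fewer arrays enter these fits, yet the counts went both ways from the 2209 of all genes called with all 8 arrays. They were 2947 and 3059 without Foxa2-deleted replicate 2 or 4, and 1069 and 1868 without replicate 1 or 3. Without control replicates 1 to 4 they were 1111, 557, 618 and 556. The cause was not tested further. Foxa2 passed under each alternative except the filter on the lower 50%, where it was not tested. The replicate numbers did not pair the arrays (same-number correlations of deviations of 0.057, -0.051, -0.026 and -0.009). With the replicate number as a block, 13 members, 9 other transport genes and regulators and 1062 of all genes were called. The 13 included 11 of the 17, and Atp1b1 and Scnn1a passed as well, while Aqp11, Car13, Car2, Clca2, Slc4a11 and Slc9a3r1 did not pass with the block (adjusted p from 0.0505 to 0.0825). Without detection calls, changes of dim genes such as Slc26a3 cannot be told from the floor.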

Other observations

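The genes of the Clca family next to Clca1 and Clca2 were examined after their values were seen, and 5 further family members were measured. Clca3b, another chloride channel accessory gene, stood at 8.37, 9.38, 11.78 and 9.41 in Foxa2-deleted uteri, against 7.29, 7.27, 7.22 and 7.24 in controls, and rose by 2.48 (SE 0.60, adjusted p = 0.0339). Its Foxa2-deleted uteri were all above the controls, with replicate 3 well above the other 3, and it did not pass on omitting any single control (highest adjusted p 0.0926). Clca3a1 stood at 8.58, 8.64, 9.65 and 8.54 in Foxa2-deleted uteri, against 9.59, 9.56, 9.70 and 9.86 in controls, and did not pass (log2 change -0.83, SE 0.23, adjusted p = 0.0519). Replicate 3 lay among the controls while the other 3 were below them. Clca3a2, Clca4a and Clca4b had log2 changes of 0.23 (SE 0.34), 0.07 (SE 0.05) and 0.02 (SE 0.06). The family members are similar in sequence, and cross-hybridisation between their probe sets was not tested.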
